A study of Mus musculus with 8 samples.

Results

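The genes described here are a set of imprinted genes that act on embryonic growth: Dlk1, Meg3, Rian, Mirg, Igf2, H19, Cdkn1c, Peg3, Grb10 and Mest. They were chosen by name, with earlier results of these data known: the level of Dlk1 in cells undergoing endothelial-to-hematopoietic transition (EHT) in both genotypes, and the levels of the set across cell types. Those values are given below as a description, with no test. Of the 10 genes named, 9 had a row under their symbol among the 28014 genes of the count table, and Rian is not analysed here.

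The libraries were made by CITE-seq, in which RNA and antibody-derived tags are counted in the same cells, from CD31+ (endothelial and some blood) cells of the aorta-gonad-mesonephros (AGM) of mouse embryos at E10.5. The 5 WT libraries came from C57BL/6 embryos. The paper uses WT both for wildtype embryos and for littermates without Cre, and does not say which each library held. The 3 Meis1-flox/VE-Cre libraries, called Mf/f;Cre below, carried floxed Meis1, from which Cre removes an exon, and Cre under the VE-cadherin promoter, which is active in endothelium, so that blood cells descended from it also carry the deletion. Meis1 is a homeobox transcription factor of the TALE class. Each library pooled several embryos of 1 genotype, so that p-values here measure the spread between pools. The table held 15168 cells in 10 cell types named by the authors: arterial endothelium (aEC), 4 clusters mostly of venous endothelium (vEC_1 to vEC_4), pre-hemogenic endothelium (pre-HE), EHT, erythro-myeloid progenitors (EMP), Myeloid and Megakaryocyte. Clusters were drawn on RNA alone, and the tags took no part. Levels are given as CPM, the UMIs of a gene as counts per 1e6 UMIs summed over the cells of 1 type in 1 library.

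The libraries held 651 to 2598 cells and 20484881 to 79429129 UMIs. WT 1 to 4 had median UMIs per cell of 26572 to 28553, against 12720.5 in WT 5 and 9611.5 to 14895 in Mf/f;Cre. WT 5 also shared with Mf/f;Cre the counting of a CD44 tag, and its cell names began in "Mf". Genotype and these properties cannot be told apart for WT 1 to 4, so the genotype differences described for Dlk1, Igf2 and Meg3, and those of the genes called, are also given against WT 5 alone where they could be fitted. The 3′ counts of Meis1 do not cover the deleted part alone and check no label: Meis1 stood at 80.0 ± 6.94 CPM in WT EHT (SD, n = 5) and 62.1 ± 7.90 in Mf/f;Cre EHT (SD, n = 3). Not all marker sums in WT were highest in the type they name. The summed EHT markers (Runx1, Gfi1, Spi1, Kit, Myb) ranged from 736 to 829 CPM in EHT and from 24.5 to 35.6 in endothelium, and the summed arterial markers from 121 to 311 CPM in aEC and from 1745 to 2652 in pre-HE. In aEC the venous markers (mean 348 CPM) exceeded the arterial ones (mean 210 CPM). The pre-HE markers (Cd44, Procr and Meis1) had a mean of 169 CPM in pre-HE and 206 in EHT, and the EMP and blood markers, of which Cd34 is also an endothelial gene, 703 in EMP and 1089 in pre-HE. The myeloid markers had a mean of 1050.3 CPM in EMP, against 2.71 in pre-HE.

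Imprinted genes are expressed mainly from the copy inherited from 1 parent, and most lie in domains in which methylation of a control region sets which copy is read. On mouse chromosome 12, Dlk1 is read from the paternal copy and the noncoding RNAs Meg3, Rian and Mirg from the maternal copy of the same domain, Mirg being a host of microRNAs. On distal chromosome 7, Igf2 is paternal, whereas its neighbour H19, a noncoding RNA, and Cdkn1c are maternal. Paternally read growth genes tend to favour growth of the embryo and maternally read ones to restrain it. Dlk1 is a membrane protein with EGF-like repeats related to the Notch ligands, and both it and the Igf2–H19 locus have been studied in hematopoietic stem cells and their niche. The counts do not tell the parental copies apart and hold no methylation.

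In GRCm38.p6, the RefSeq build that corresponds to the authors' mm10, Dlk1 lies at chr12:109452485-109463336, Meg3 at chr12:109540996-109571729, Rian at chr12:109603945-109661716 and Mirg at chr12:109734981-109749458. H19 (chr7:142575530-142578146), Igf2 (chr7:142650768-142666816) and Cdkn1c (chr7:143458339-143461059) lie together, and Peg3 lies elsewhere on the same chromosome (chr7:6703892-6730462). Grb10 (chr11:11930499-12037428) and Mest (chr6:30733506-30748466) are on chromosomes of their own. The promoters of Dlk1 and Meg3 are shown because these neighbours had opposite patterns in the data below. Dlk1 also correlated negatively with the genes of the set on other chromosomes. Each is 250 bases before to 50 after the start in RefSeq, on the plus strand, with CpG dinucleotides, the sites that methylation acts on, in capitals.
Dlk1, chr12:109452573-109452872: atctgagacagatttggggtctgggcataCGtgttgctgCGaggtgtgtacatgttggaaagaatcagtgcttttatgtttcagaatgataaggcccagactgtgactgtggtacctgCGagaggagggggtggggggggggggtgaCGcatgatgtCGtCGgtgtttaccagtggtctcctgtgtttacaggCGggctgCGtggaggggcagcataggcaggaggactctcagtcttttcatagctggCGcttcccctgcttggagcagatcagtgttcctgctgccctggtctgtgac
Meg3, chr12:109540746-109541045: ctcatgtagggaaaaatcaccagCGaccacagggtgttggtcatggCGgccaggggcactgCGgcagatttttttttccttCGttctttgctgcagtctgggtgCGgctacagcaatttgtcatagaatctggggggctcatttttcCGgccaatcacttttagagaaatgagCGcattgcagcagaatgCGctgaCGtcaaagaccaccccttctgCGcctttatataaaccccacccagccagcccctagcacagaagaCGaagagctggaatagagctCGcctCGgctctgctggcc
The Dlk1 window held 9 CpG and that of Meg3 13, against a median of 7 over the 32851 promoters of the table. A second Meg3 promoter listed, at chr12:109545148-109545447 and not shown, held 1. The Dlk1 window lies inside the gene span given above. The letters TGACAG, a core bound by TALE homeodomain proteins, were searched on both strands. They were found in 6300 promoters (19.2%), and in 1 of the 15 promoters listed for 8 of the genes, an Igf2 one at chr7:142666767-142667066. A match is no evidence of binding, and these letters were not in the 2 windows shown.

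Dlk1 marked EHT cells in WT. In WT EHT it stood at 89.7, 50.1, 41.0, 66.5 and 58.6 CPM in WT 1 to 5, and in endothelium (aEC and all vEC summed) at 2.83, 2.74, 4.72, 3.11 and 3.12 CPM. The ranges were far apart, and every library gave the higher value in EHT. On the log2(CPM + 1) scale EHT lay above endothelium by 3.82 on average (SD 0.61, n = 5). EMP followed at 8.92, 18.9, 10.7, 11.4 and 2.22 CPM, and Megakaryocyte at 6.51 ± 4.44 CPM (SD, n = 5). From EMP down, the range of each type overlapped with that of the next in order.

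Pre-HE, placed by the study between arterial endothelium and EHT, held no Dlk1 UMI in any WT library (11 to 87 cells each). It gave 0 of 2331096 UMIs, against 593 of 9266568 in EHT. With 3 counts as the limit that a count of 0 allows, EHT would be at least 49.7-fold higher. That limit takes UMIs as independent, while up to 37 lay in 1 EHT cell, so it is a rough one. aEC was at 4.73, 2.35, 0.914, 3.26 and 3.14 CPM. Of the Mf/f;Cre libraries, 1 had Dlk1 in pre-HE, at 4.95 CPM, and the other 2 had none. That level was 1 UMI, of 524071 in Mf/f;Cre pre-HE.

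**Figure D1:**
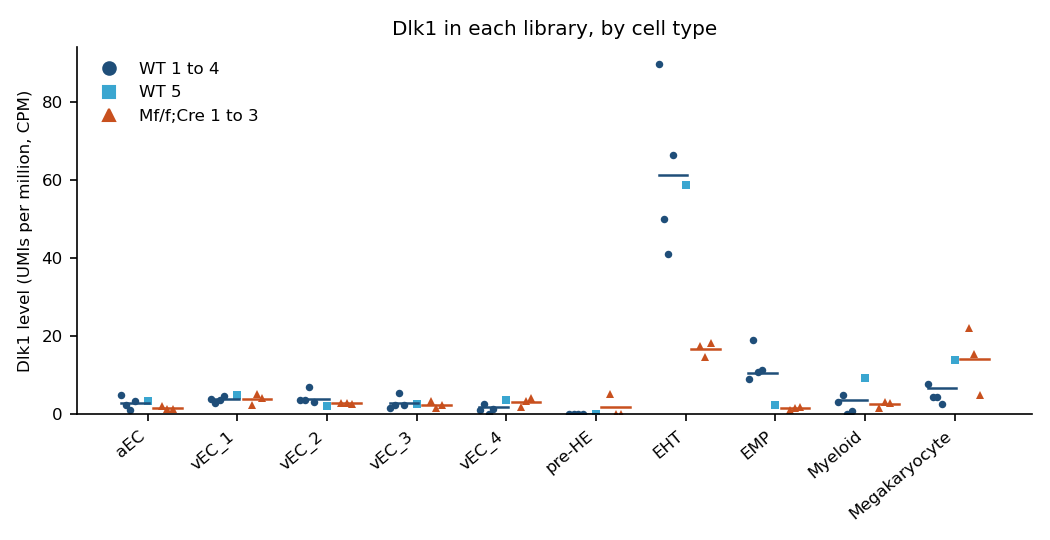
Dlk1 level (CPM) in each library (points) over the 10 cell types, with WT 1 to 4, WT 5 and Mf/f;Cre libraries marked apart and lines at the mean of each genotype. EHT holds the highest levels in WT, at 41.0 to 89.7 CPM. In Mf/f;Cre, EHT is at 14.6 to 18.0 CPM and Megakaryocyte at 4.92 to 22.0.

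Not all EHT cells held Dlk1. A Dlk1 UMI was found in 54.7%, 35.6%, 45.2%, 41.2% and 38.1% of the EHT cells of WT 1 to 5. After thinning each cell to 5000 UMIs the shares were 20.3%, 17.8%, 19.4%, 20.9% and 28.0%, of which WT 5, the shallowest WT library, was the highest. In WT endothelial clusters at the same depth the shares were 0.58% to 2.1%. The part of free RNA in these shares was not tested. Cells with a UMI had a mean of 2.40 UMIs in WT 5 and 3.50 to 6.07 in WT 1 to 4, and the cell with the most held 37.

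The 5 genes whose mean log2(CPM + 1) over the 10 WT cell types was most like that of Dlk1 were Zfp35 (r = 0.92), Itih5 (r = 0.92), Dr1 (r = 0.91), Mettl22 (r = 0.90) and Lmo1 (r = 0.90), among 9759 genes. These are Pearson correlations over 10 types that share libraries. Lmo1, a LIM-only transcriptional cofactor, was at 34.2 CPM in EHT, 6.94 in EMP and 0 in pre-HE.

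In Mf/f;Cre EHT, Dlk1 stood at 17.4, 14.6 and 18.0 CPM. All 3 lay below the lowest WT library, and the Mf/f;Cre libraries spread far less than the WT ones. The fitted log2 difference, Mf/f;Cre minus WT, was −1.83 (SE 0.28), and it was −1.80 against WT 5 alone and −1.84 without WT 5. The share of EHT cells with a UMI at 5000 UMIs was 21.3% ± 3.93 in WT (SD, n = 5) and 5.26% ± 1.94 in Mf/f;Cre (SD, n = 3). Without thinning, cells with a UMI held a mean of 1.80, 1.75 and 1.86 per cell, but median depth in EHT was 12154.5 UMIs in Mf/f;Cre and 25591.5 in WT. The megakaryocyte markers (71.4 to 82.4 CPM in WT, 42.6 to 58.3 in Mf/f;Cre) and the pre-HE markers, Meis1 among them (196 to 213 and 123 to 186 CPM), also did not overlap between genotypes in EHT, and their part in the Dlk1 difference was not tested. Because this contrast was known when the genes were chosen, it is given without a test. The share of all 8670 genes past an adjusted p of 0.1 in EHT was 0.127% (edgeR). Fewer Dlk1-holding cells and less Dlk1 per cell cannot be told apart in such sums.

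In EMP, progenitors of the erythroid and myeloid lines, Dlk1 was the 1 gene of the set, of 8 tested, that passed the test. It stood at 0.974, 1.38 and 1.72 CPM in Mf/f;Cre, below all WT libraries, of which WT 5 was the lowest. It fell by a log2 difference of −2.87 (SE 0.65, edgeR quasi-likelihood test, Benjamini-Hochberg adjusted p = 0.048, 5 against 3 libraries). In EMP 4.74% of all genes passed. The call was lost without any 1 of the Mf/f;Cre libraries, and against WT 5 alone Dlk1 had too few counts to be tested.

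This EMP difference rested on few cells. Dlk1 had 27, 81, 22, 64 and 6 UMIs in the WT EMP sums and 2, 3 and 4 in Mf/f;Cre. In WT 1 to 4, 7, 9, 5 and 5 cells held them, and the top cell alone held 40.7% to 51.6% of a library's UMIs. In WT 5, 6 cells held 1 UMI each. The share of EMP cells with a UMI at 5000 UMIs was 3.76% ± 2.11 in WT (SD, n = 5) and 0.227% ± 0.393 in Mf/f;Cre (SD, n = 3), a comparison added after seeing the data (exact permutation test, two-sided, p = 0.0536, where 0.0179 is the smallest possible). At 3000 UMIs and with no thinning the exact permutation test gave p = 0.0357. Without thinning depth was not equal, with a median of 46035.5 UMIs in WT EMP and 17100 in Mf/f;Cre EMP. The part of depth in the unthinned share was not tested. At 5000 UMIs WT 5 gave a share of 0.901%.

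The 19 WT EMP cells with at least 2 Dlk1 UMIs differed in level from the other 371 in genes that are no part of the set. Summed over cells, Cd34, a progenitor surface gene, was at 325 CPM in them against 129, and Mpo, a granule enzyme of the myeloid line, at 249 against 658. Igf2 was at 67.8 against 12.2 CPM, while the EHT markers stood at 645 and 632 and the endothelial markers at 44.8 and 84.6. None of the 19 cells came from WT 5, whose 111 EMP cells are all among the others, so the contrast is also in part one between libraries. Beside the genotype difference in EMP, the summed erythroid markers were at 274 to 1799 CPM in Mf/f;Cre and 3.87 to 183 in WT. The myeloid markers were at 1363 to 1633 CPM in Mf/f;Cre and 772 to 1228 in WT, and at 628 in the 19 cells against 1085 in the others. The part of these markers in the Dlk1 difference was not tested.

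Elsewhere in WT, Dlk1 was lower than in EHT. In Myeloid it was at 2.90, 4.76, 0, 0.728 and 9.09 CPM in WT 1 to 5 and 1.40, 3.03 and 2.78 in Mf/f;Cre, with no call in the 5 against 3 comparison. WT 5 was the highest, and against WT 5 alone the log2 difference was −1.80 (edgeR, adjusted p = 0.054), where the lone WT library is assumed to vary as the others do. In Megakaryocyte it was at 7.63, 4.34, 2.48 and 13.7 CPM in WT 1, 2, 4 and 5 and 22.0, 15.3 and 4.92 in Mf/f;Cre, where the groups overlapped. The log2 difference was 0.95 (edgeR adjusted p = 0.658) and 0.15 against WT 5 alone. In the first and second Mf/f;Cre libraries Megakaryocyte lay above EHT in Dlk1, and in the third below it.

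The maternally read neighbours of Dlk1 ran the other way over WT cell types. Meg3 was at 186, 194, 172, 167 and 195 CPM in endothelium and at 26.5, 18.8, 16.7, 28.5 and 35.3 CPM in EHT. EHT lay below endothelium by a log2 difference of −2.86, and EMP by −5.74. Pre-HE, where Dlk1 was absent, was at 210, 257, 220, 142 and 142 CPM, overlapping with the endothelial range. Mirg had the same shape at lower counts, at 3.52 to 5.32 CPM in endothelium and 0.391 to 1.88 CPM in WT EHT, with none in the EHT cells of any Mf/f;Cre library. WT EHT held 10 Mirg UMIs of 9266568 and Mf/f;Cre EHT 0 of 2233890, too few to show a difference between genotypes. Of the other genes of the set, Meg3 was the most like Mirg in pattern (r = 0.98 over the 10 types). The pair Dlk1 and Meg3 gave r = −0.55. This sign was not particular to the neighbours, since Dlk1 had a negative r with every other gene of the set. Mest on chromosome 6 gave −0.55, Peg3 −0.51 and Cdkn1c, the least negative, −0.34.

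Igf2, H19 and Cdkn1c were highest in pre-HE. Igf2, the growth factor that signals through the IGF1 and insulin receptors, was at 1205, 1517, 1984, 1676 and 811 CPM in pre-HE of WT 1 to 5 and at 306, 263, 377, 400 and 230 CPM in endothelium. Its pre-HE values lay above every endothelial value, by 2.15 on the log2 scale (SD 0.29, n = 5). H19 was at 3349, 3441, 4318, 2929 and 2691 CPM in pre-HE against 635 to 726 in endothelium. Cdkn1c, whose product p57 inhibits cyclin-dependent kinases, was at 1371, 1167, 1634, 1575 and 1416 CPM against 207 to 300. All 5 libraries gave the higher value in pre-HE for each, with log2 differences of 2.27 (SD 0.33) for H19 and 2.50 (SD 0.33) for Cdkn1c. aEC came next for H19 (1098 ± 150 CPM) and Igf2 (471 CPM), and vEC_4 for Cdkn1c (488 CPM), none overlapping with pre-HE.

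In EHT these genes lay closer to the endothelial level. Igf2 was at 279, 279, 399, 454 and 247 CPM, H19 at 474 to 603 CPM, and Cdkn1c at 372, 434, 265, 458 and 275 CPM. Only Cdkn1c of the 3 was higher than endothelium in all 5 WT libraries, by 0.48 (SD 0.16), and H19 was lower in all 5, by −0.31 (SD 0.17). In EMP they were low, Igf2 at 9.91, 7.92, 27.6, 19.3 and 11.9 CPM and Cdkn1c at 2.10 to 12.2.

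**Figure D2:**
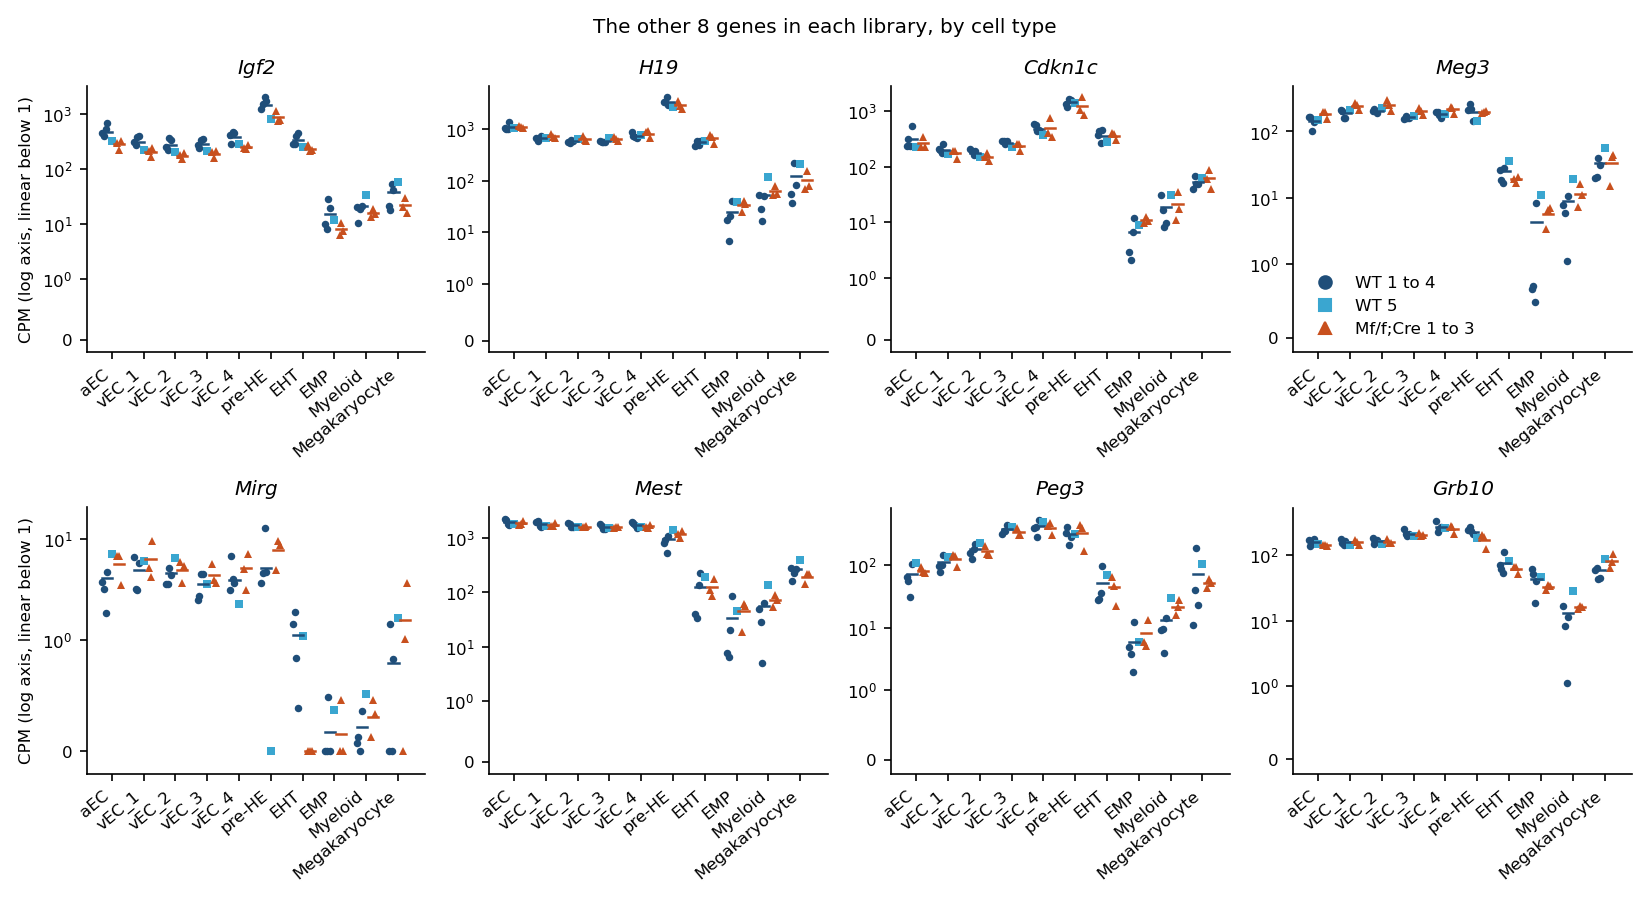
Levels (CPM, on a log axis that is linear below 1) of the other 8 genes of the set in each library (points) over the 10 cell types, with lines at the mean of each genotype. Igf2, H19 and Cdkn1c peak in pre-HE, Mest and Meg3 stay high through endothelium, and most are low in EMP and Myeloid.

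Mest and Grb10 were higher in every endothelial cluster than in blood types, and Peg3 varied within endothelium. Mest, which encodes a protein of the hydrolase fold, was at 1934, 1852, 1581, 1568 and 1625 CPM in endothelium, 519 to 1410 in pre-HE and 33.2 to 225 in EHT. The EHT values spread widely, and all lay below every pre-HE value. Peg3, a zinc-finger protein, was highest in vEC_4 (412 ± 91.4 CPM) and vEC_3 (367 ± 47.7 CPM) and lower in aEC (71.6 ± 32.7 CPM), where it overlapped with Megakaryocyte and with EHT (51.4 ± 30.2 CPM). Its pre-HE level of 306 ± 71.5 CPM overlapped with that of vEC_3. Grb10, an adaptor that dampens signalling from the insulin and IGF receptors, was at 265 ± 39.4 CPM in vEC_4, 226 ± 35.0 in pre-HE, 75.0 ± 23.0 in EHT and 43.3 ± 15.9 in EMP (SD, n = 5 in each).

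Counted over the set, 5 of the 9 genes were higher in pre-HE than in endothelium in all 5 WT libraries (Igf2, H19, Cdkn1c, Peg3 and Grb10) and 2 lower (Dlk1 and Mest). Over all genes these shares were 16.9% and 17.2%. With TMM-scaled libraries 3 were higher. In EHT 2 were higher (Dlk1 and Cdkn1c) and 6 lower, against 32.3% and 26.8% of all genes. With aEC alone as endothelium 1 was higher. In EMP none was higher and 8 lower, against 33.2% and 40% of all genes. The exception in EMP was Dlk1, higher in 4 of 5 libraries. The median log2 difference of the set was 0.30 in pre-HE, −1.31 in EHT and −4.96 in EMP, against −0.04, 0.07 and −0.06 for all genes.

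**Figure D3:**
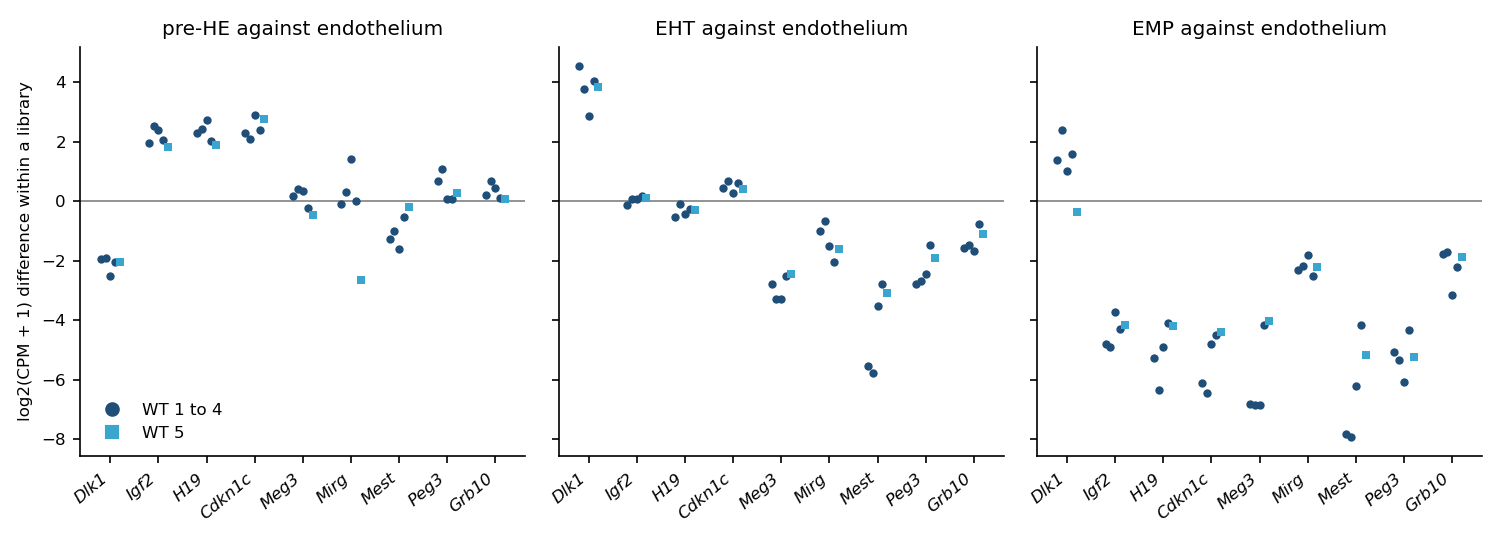
Difference of each gene from endothelium on the log2(CPM + 1) scale, 1 point for each WT library, in pre-HE, EHT and EMP. Dlk1 is the only gene of the set below endothelium in pre-HE in every library and above it in EHT in every library.

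Endothelial markers were low but present in EMP and Myeloid. The markers Cdh5, Kdr and Emcn, left after taking out Pecam1 and Eng, stood in EMP at 0.948%, 0.473%, 1.32%, 5.13% and 3.00% of their endothelial level in WT 1 to 5. In the same sums Meg3 was at 0.281% to 5.70% of its endothelial level, Mest at 0.352% to 5.51% and Cdkn1c at 0.776% to 4.30%, each higher in WT 4 and 5 than in WT 1 to 3, as the markers were. Igf2, at 3.24%, 3.01%, 7.32%, 4.83% and 5.16%, did not follow the markers and lay well above them in WT 1 to 3. The part of endothelial RNA in the droplets was not tested. Grb10 at 10.8% to 30.0% and Dlk1 at 71.3% to 690% lay above that range. In Myeloid, the markers were at 0.370% to 9.19% and Meg3 at 0.648% to 9.67%.

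Of the genotype comparisons in the other types, none gave a call for the set in the 5 against 3 design: aEC (0% of all genes called, 1000 of 9540 at an unadjusted p under 0.05, and 11 by DESeq2), vEC pooled (0.0164%), pre-HE (0.489%), Myeloid (3.26%) and Megakaryocyte (0.206%, with 4 WT libraries). They had 8, 9, 7, 8 and 8 genes of the set tested. Igf2 and Meg3 came nearest to a call.

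Igf2 was at 440, 396, 529, 668 and 321 CPM in aEC of WT 1 to 5 and at 291, 222 and 323 CPM in Mf/f;Cre. The groups overlapped by a narrow margin, at WT 5. In vEC it was at 288, 244, 365, 366 and 218 CPM and at 199, 165 and 213 CPM, with no overlap in CPM, though the groups overlapped once scaled by TMM. Mf/f;Cre pre-HE was at 1109, 737 and 752 CPM, in range of WT 5. The log2 differences were −0.74 in aEC (SE 0.20, edgeR adjusted p = 0.276), −0.58 in vEC (SE 0.18, edgeR adjusted p = 0.209) and −0.69 in pre-HE (SE 0.24, edgeR adjusted p = 0.459). Without WT 5 each passed (−0.84, −0.67 and −0.83, edgeR adjusted p = 0.014, 0.029 and 0.015), while against WT 5 alone they were −0.23, −0.19 and 0.13. At an equal depth of 5000 UMIs the 5 against 3 values were −0.72, −0.62 and −0.84. In EHT, given without a test, Igf2 was at 269, 208 and 218 CPM in Mf/f;Cre, a log2 difference of −0.47 that was −0.10 against WT 5 alone. Without WT 5, 408, 1647 and 79 of all genes passed in aEC, vEC and pre-HE, which is the background to those calls.

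Meg3 had the opposite sign in endothelium. In vEC it was at 189, 198, 178, 170.0 and 201 CPM in WT and 264, 237 and 195 CPM in Mf/f;Cre, with the groups overlapping in the third Mf/f;Cre library. The log2 difference was 0.34 (SE 0.10, edgeR adjusted p = 0.208). It was 0.38 without WT 5 (edgeR adjusted p = 0.035) and 0.19 against WT 5 alone. H19, which shares control elements with Igf2, was at 634, 580, 626, 635 and 684 CPM in WT vEC and 767, 688 and 616 CPM in Mf/f;Cre.

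**Figure D4:**
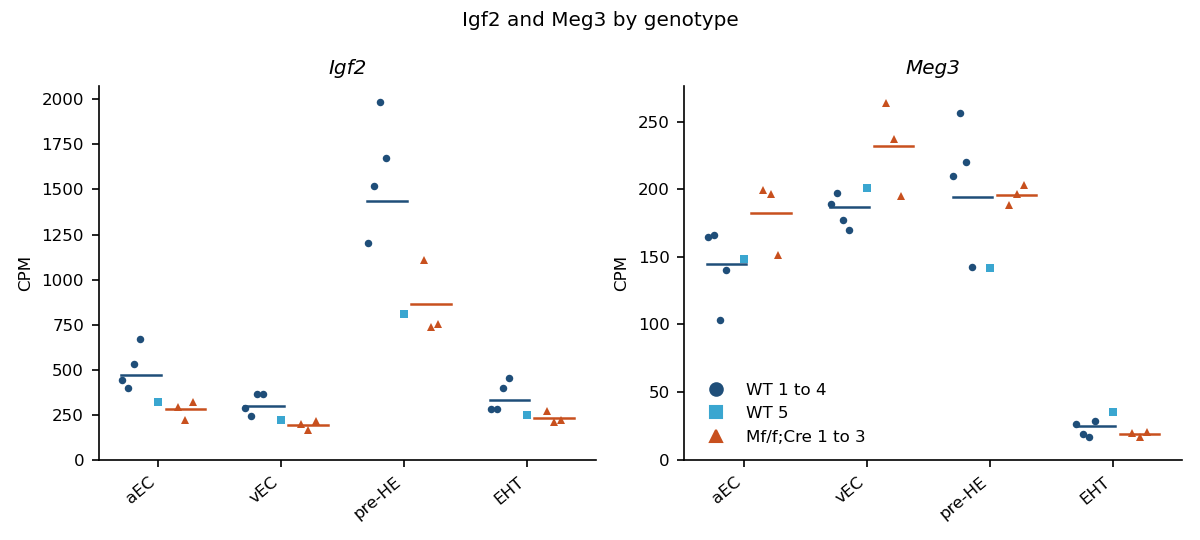
Igf2 and Meg3 levels (CPM) in aEC, vEC, pre-HE and EHT, 1 point for each library with WT 1 to 4, WT 5 and Mf/f;Cre marked apart, and lines at the mean of each genotype. For Igf2, WT 5 is the lowest WT library in all 4.

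In Myeloid, Igf2 lay above every other library in WT 5 (33.4 CPM, against 10.4 to 20.6 in WT 1 to 4 and 13.5 to 18.3 in Mf/f;Cre). Its log2 difference was −0.32 with all WT libraries (edgeR adjusted p = 0.654) and −1.02 against WT 5 alone (edgeR adjusted p = 0.050). Endothelial markers were also highest in WT 5 Myeloid, at 9.19% of their endothelial level. Peg3 in Myeloid passed without WT 5 (1.18, edgeR adjusted p = 0.019), but was −0.37 against WT 5 alone.

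Related genes gave few calls between the genotypes. Of 30 other imprinted genes, 14 were tested in EMP and 1 rose, Slc38a4 (an amino acid transporter, log2 1.06, edgeR adjusted p = 0.086), where 4.74% of all genes passed. In Myeloid 19 were tested and 1 fell, Gnas (the stimulatory G protein subunit, −0.59, edgeR adjusted p = 0.052), where 3.26% of all passed. Neither count stands apart from those shares, and both calls were fragile. Slc38a4 was lost without any 1 library other than WT 5 and was 0.65 against WT 5 alone. Gnas was lost without WT 1, 2 or 4 or any Mf/f;Cre library and was −0.29 against WT 5 alone. Of 16 genes of the IGF axis, 8 were tested in EMP and 12 in Myeloid. Igfbp4, a binding protein, rose in EMP (0.66, edgeR adjusted p = 0.035). Igf2bp2, an RNA-binding protein that binds IGF2 mRNA, fell in EMP (−1.21, edgeR adjusted p = 0.009) and in Myeloid (−1.03, edgeR adjusted p = 0.032). Against WT 5 alone, Igfbp4 was at 0.95 and Igf2bp2 at −0.73 in EMP, neither called, and Igf2bp2 at −1.35 in Myeloid (edgeR adjusted p = 0.039). The Igfbp4 call was also lost without the second Mf/f;Cre library, and that of Igf2bp2 in Myeloid without the first or the second. None of the 5 Dlk1 relatives and Notch response genes or of the 4 other CDK inhibitors passed in any type. Of these, 3 to 4 and 1 to 4 were tested in a type.

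Against endothelium in WT, the median log2 difference of each of these lists had the same sign as that of the set in pre-HE, EHT and EMP. In pre-HE, 6 of 14 IGF axis genes were higher in all 5 libraries, among them Igfbp2 (log2 2.58) and Igfbp3 (2.41), both binding proteins of IGFs, and 1 was lower, Igf1 (−1.63), against 16.9% and 17.2% of all genes. Of the 4 Notch-related genes 3 were higher in pre-HE, with Hey1, a Notch target, at 245 against 11.8 CPM. In EHT none of these was higher in all 5 libraries and 2 lower, among them Hes1 (−1.53). Of the 22 other imprinted genes with enough counts in EHT, 4 were higher and 12 lower, against 32.3% and 26.8% of all genes. Among them Asb4 was at −3.66 and Peg10 at −2.71. In pre-HE, 5 of 22 other imprinted genes were higher and 3 lower. In EMP, 15 of 20 other imprinted, 9 of 12 IGF axis and 4 of 4 Notch-related genes were lower in all 5 libraries. There 4, 2 and 0 were higher, against 33.2% higher and 40% lower of all genes. Of the 4 other CDK inhibitors, 1 was higher and 1 lower in EMP.

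Within EHT cells the antibody tags gave a readout that took no part in choosing the genes. With cells thinned to 5000 UMIs, 4 libraries (WT 1, 2, 3 and 5) had at least 5 cells with a Dlk1 UMI. The mean CD43 tag count was 600, 686, 532 and 191 in cells with Dlk1 and 488, 500, 309 and 147 in cells without it. It was higher in 4 of 4 libraries, by 0.48 ± 0.21 on the log2 scale (SD, n = 4, exact sign-flip permutation, p = 0.125, the smallest possible, adjusted p = 0.625 over 5 tags). The tag counts were not thinned, and before thinning the cells with Dlk1 were deeper in all 4 libraries. Their median UMIs were 32231, 42054.5, 47337 and 14003, against 26955, 32831, 34085 and 13519 in the cells without. The part of depth in the tag differences was not tested. The differences for CD117 (0.03 ± 0.30), CD41 (−0.07 ± 0.50), CD45 (0.12 ± 0.52) and CD27 (0.36 ± 0.63) were each smaller than their SD. CD43 and CD45 mark cells further along toward blood, and CD41 and CD117 appear earlier.

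The RNA of these cells is given as a description, with no test, since it drew the clusters. In the 5 WT libraries, Cdkn1c was lower in EHT cells with a Dlk1 UMI in every library (mean 206 against 451 CPM), and the summed arterial markers were at 4.07 against 93.2 CPM. H19 was at 382 against 713 CPM, lower in 4 of 5 libraries, and Mpo at 89.4 against 51.8, higher in all 5. The summed myeloid markers, Mpo among them, were at 262 against 222 CPM, higher in only 2 of 5 libraries.

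EHT cells were also split at the median of each tag within a library, a comparison added after seeing the data. Dlk1 was higher above the CD43 median in 4 of 7 libraries, by 1.29 (SD 2.03, exact sign-flip permutation, p = 0.172, adjusted p = 0.368). It was lower there in WT 3 (33.4 against 49.3 CPM), WT 5 (53.1 against 65.4) and the third Mf/f;Cre library. Above the CD43 median, Cdkn1c was at 267, 346, 207 and 219 CPM in WT 1, 2, 3 and 5 and 198, 199 and 176 CPM in Mf/f;Cre. Below it the values were 543, 551, 329 and 344 CPM and 668, 592 and 479 CPM. All 7 libraries with tags were lower above the median, by −1.11 (SD 0.47), and likewise for Igf2 (−0.76) and H19 (−0.76). Above the CD41 median they were also lower in 7 of 7 (Igf2 −0.65, H19 −0.67, Cdkn1c −0.77). Above the CD45 median Meg3 was higher in 7 of 7, at a mean of 33.6 against 8.76 CPM. Each difference with the same sign in 7 of 7 libraries gave p = 0.0156 (exact sign-flip permutation, the smallest possible for 7 libraries). The adjusted p of each was 0.1004 over 45 comparisons, which did not pass 0.1. Beside the CD43 split the summed arterial markers were at 12.6 against 104 CPM, the endothelial markers at 272 against 498 and the median UMIs at 25879 against 18489, and venous markers were higher above the CD45 median in 6 of 7 libraries. Their part was not tested.

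**Figure D5:**
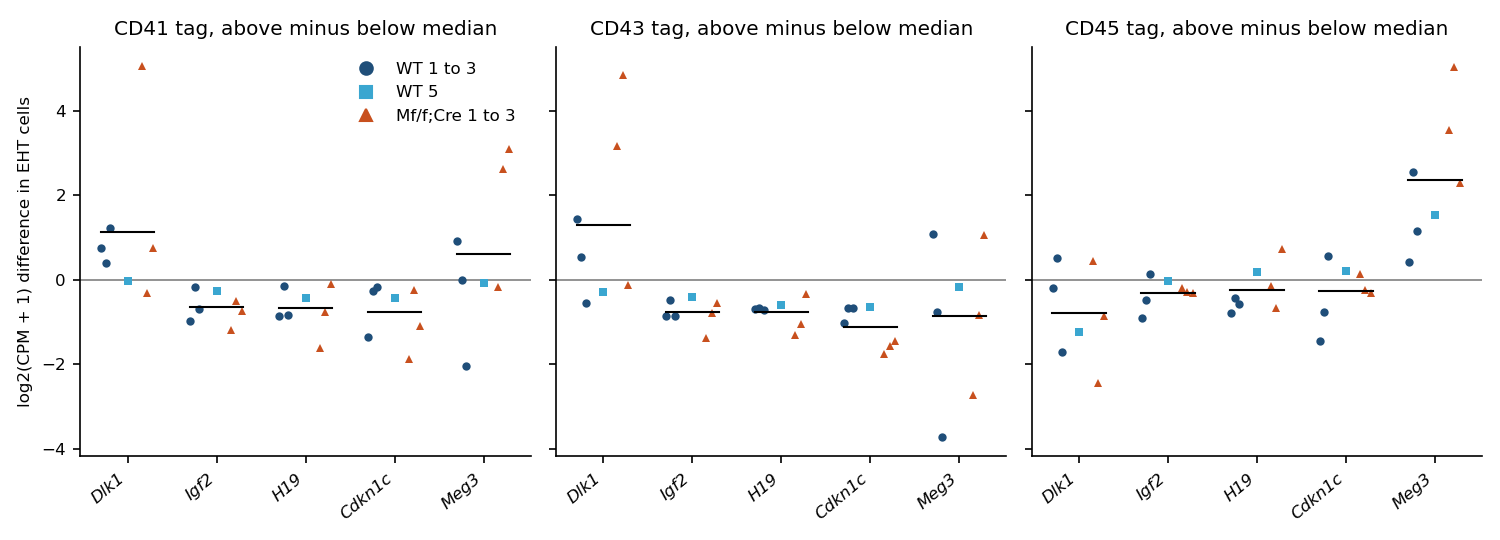
Difference in level between EHT cells above and below the median count of the CD41, CD43 and CD45 tags of their library, on the log2(CPM + 1) scale, for Dlk1, Igf2, H19, Cdkn1c and Meg3. Each point is 1 of the 7 libraries with tags and the lines are means. For CD43, all points of Igf2, H19 and Cdkn1c lie below 0, and for CD45 all points of Meg3 lie above it, while Dlk1 has points on both sides.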

How the data were processed

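The authors deposited 1 table of UMI counts per cell, for RNA and antibody tags, and the cell type of each cell. The submitters' processing notes name Cell Ranger 3.0.2 and mm10, and the fewest genes in a cell were 2001. Counts were used as deposited. They were summed per library and cell type (at least 10 cells). The test of genotype was the quasi-likelihood test of edgeR 4.0.16 under R 4.3.3, after TMM scaling and filterByExpr (two-sided, Benjamini-Hochberg over all genes, adjusted p under 0.1), with DESeq2 1.42.0 as an alternative. vEC_1 to vEC_4 were summed as vEC. Levels are CPM, with a pseudocount of 1 on the log2 scale. Shares were taken after thinning cells to 5000 UMIs. Tag differences were tested by exact sign-flip permutation over libraries (Python 3.11.15, scipy 1.17.1). The tests were tested on simulated data.

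All 10 genes were to be named in every comparison, the 5 genes most like Dlk1 in pattern, and up to 4 genes per list. The genes, lists and rules were chosen with earlier results of these data known. Scrublet (scanpy 1.11.5) called 83 cells (0.547%) doublets, 15 of them among the 488 EHT cells, and these were kept. A barcode occurred in more than 1 library in 33 cases. WT 4 had no tag counts and entered no tag comparison. Whether the replicate numbers pair libraries of the 2 genotypes is not known: deviations of libraries with the same number correlated at −0.17 to 0.32.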

Additional observations from a re-analysis of the deposited data

Results flagged for a closer look

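Of 89 groups of WT libraries tested, 4 had a library that lay far from the others, and chance gives about 1 in 20. In aEC, WT 4 was the highest for Cdkn1c (537 CPM, against a median of 238 in the other libraries) and for H19 (1363 CPM, against 1032). In vEC_3, Dlk1 was highest in WT 3 (5.39 CPM, against 2.32) and H19 in WT 5 (689 CPM, against 563).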

How the results depend on the processing

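The clear limit on the genotype values was WT 5, the WT library nearest to Mf/f;Cre in depth. The Dlk1 difference in EHT kept its sign and a size of −2.18 to −1.80 in the 5000-UMI, DESeq2, no-doublet, block and WT 5 settings. Pre-HE sums rest on few cells, 11 to 87 in each WT library. Causes of the shifts below were not tested.

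Numbers of genes of the set past the threshold changed as follows. In aEC, 0 became 1 with no filter on low counts. In vEC, 0 became 2 by DESeq2. In EMP, 1 became 0 with cells thinned to 5000 UMIs, where Dlk1 did not pass the filter, and 0 against WT 5 alone. In Myeloid, 0 became 2 against WT 5 alone, and in EHT 1 became 2 with no filter. With the replicate block (libraries 1 to 3 of each genotype) the numbers in aEC, vEC, pre-HE, EMP, Myeloid and EHT were 3, 2, 2, 5, 3 and 3. The same libraries with no block, a setting chosen after seeing the data, gave 2, 2, 2, 4 and 3 in the first 5. Leaving out 1 library gave ranges of 0 to 1 in aEC, pre-HE, EMP, Myeloid and EHT and 0 to 2 in vEC. The EHT numbers include Dlk1, whose contrast there chose the set, and are no test of it: its fold stayed at −1.90 to −1.76 without each Mf/f;Cre library, where the number was 0. The single call of EMP was lost without each Mf/f;Cre library, and those of aEC, vEC, pre-HE and Myeloid came without WT 5.

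Over all genes in aEC, vEC, pre-HE, EMP, Myeloid, Megakaryocyte and EHT, the calls were 0, 2, 18, 435, 374, 16 and 11. With the replicate block they were 744, 2390, 146, 1001, 1338, 141 and 487, and with no block 295, 1201, 103, 717, 1335, 104 and 278. In none of the 6 types checked did every library correlate best with its own number. WT 3 did so in aEC, vEC, pre-HE, EMP and EHT, so whether the numbers pair the libraries is not known. DESeq2 gave 11, 264, 9, 473, 584, 86 and 43, no filter 219, 136, 65, 537, 442, 273 and 237, and 5000 UMIs 8, 0, 17, 129, 175, 4 and 5. WT 5 alone gave 0, 0, 3, 50, 253, 10 and 6. Without doublets Megakaryocyte had 9 and EHT 6, and with at least 20 cells pre-HE had 53. Leaving out 1 library gave 0 to 408, 0 to 1647, 8 to 79, 44 to 828, 44 to 1421, 0 to 118 and 0 to 261.

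Single differences that changed sign were Dlk1 in vEC (0.29 at 5000 UMIs, and −0.21 to 0.061 over the settings that leave out 1 library), Igf2 in pre-HE (0.13 against WT 5), Igf2 in Myeloid (0.088 with the block, 0.061 with no block) and in Megakaryocyte (0.33 and 0.19), and Peg3 in Myeloid (−0.0069 at 5000 UMIs, −0.37 against WT 5). Against endothelium, 3 genes were higher in pre-HE with TMM-scaled libraries and 3 in Mf/f;Cre, where 1 was lower and Grb10 was at −0.075. With aEC alone as endothelium, 7 genes rather than 4 were highest in pre-HE and 1 was higher in EHT. In EMP 0 to 1 were higher when 1 library was left out (1 without WT 5).

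For the tags in cells with Dlk1, no thinning gave CD117 0.37, CD41 0.42, CD43 0.79, CD45 0.37 and CD27 0.65, of which all but CD41 passed, in cells that also had more UMIs. Thinning to 3000 gave CD41 0.35 and CD45 −0.26, the centred log ratio CD117 −0.042 and CD45 −0.25. Leaving out 1 library gave −0.060 to 0.13 for CD117, −0.27 to 0.12 for CD41 and −0.11 to 0.30 for CD45. With the centred log ratio, 13 of the 45 tag median pairs passed 0.1. EHT cells with a Dlk1 UMI were 42.9% with no thinning and 14.2% at 3000 UMIs in WT, and 13.1% and 3.26% in Mf/f;Cre. In EMP they were 9.33% in WT and 2.26% in Mf/f;Cre with no thinning, where the median depth was higher in WT.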
